A study of Mus musculus with 6 samples.

Results

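The transcripts described here encode the intermediate filament proteins of neurons and of their progenitors and glia. They are the neurofilament subunits Nefl, Nefm and Nefh, the related neuronal proteins Ina and Prph, and Vim, Nes and Gfap. The 8 genes were taken by name, as a set chosen with earlier results of these data known, from a table of 41945 genes and loci, of which 33345 carried a gene symbol. A symbol was matched after entries that hold several genes had been split at the commas, and where a symbol had several entries the one with the highest level was used.

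RNA-Seq was carried out on motor neurons (MNs) made from mouse embryonic stem cells (mESCs), with 3 samples per genotype and 1 mESC line per genotype. Hb9 control MNs are labelled wildtype, and the study's methods give their genotype as SMN2+/+;mSmn+/+, while A2 SMA MNs are SMN2+/+;mSmn-/-. Both lines have the FVB/N background, carry by these methods the human SMN2 transgene and an eGFP reporter driven by the promoter of Hb9 (Mnx1), and were differentiated as embryoid bodies with 1 µM retinoic acid and 1 µM Smoothened agonist for 5 days before cells positive for GFP and negative for propidium iodide were sorted. The comparison addresses spinal muscular atrophy (SMA), a motor neuron disease caused by too little survival motor neuron protein, the product of SMN1 in humans and of Smn1 in mice.

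Intermediate filaments are ropelike polymers of the cytoskeleton. In axons, NEFL forms filaments together with the longer subunits NEFM and NEFH, and with INA or peripherin (PRPH), and the amount of filament is known for setting the calibre of motor axons. Dividing neural progenitors use vimentin and nestin instead, and astrocytes add GFAP, so the set of filament genes in use changes as neural cells mature, with NEFH among the last subunits to appear.

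Levels are given in FPKM, fragments scaled to exon length and to the number of mapped fragments, which is a scale per length on which genes can be set beside each other. The table holds 1 value per genotype, in which the authors combined the 3 samples. No value therefore has an error or a number of replicates, no difference has a replicate check or a test here, and the table does not give the number of reads behind a value. Hb9 control MNs and A2 SMA MNs are shortened to Hb9 MNs and A2 MNs beside pairs of levels, and where a pair is given without names the Hb9 value comes first. A log2 ratio is the log2 of the FPKM in A2 SMA MNs over that in Hb9 control MNs. It was formed without a pseudocount, and only for genes that reached 1 FPKM in a genotype and were not at 0 in any, and a difference was counted when it was at least 2-fold. Because each genotype is also 1 mESC line, genotype and line cannot be told apart, and in bulk samples fewer cells of a type and less RNA per cell cannot be told apart either.

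The targeted gene and the reporter's own gene were read first. Smn1 was listed at 137 FPKM in Hb9 MNs and 5.26 FPKM in A2 MNs, a log2 ratio of -4.70. Mnx1, the gene whose promoter drives the reporter used for sorting, was at 41.2 and 44.2 FPKM. Over the 14926 genes past the filter the median log2 ratio was -0.29, with quartiles of -0.89 and 0.19, so that 65.9% of the genes were lower in A2 SMA MNs by any amount. The ratio relative to this median gene is given for the filament genes where it is used.

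Most of the filament transcripts were far lower in A2 SMA MNs. Of the 8 genes, 7 passed the filter, and all 7 had at least 1 FPKM in both genotypes. At least 2-fold lower levels were listed for 6 of them, Nefl, Nefm, Ina, Prph, Vim and Nes, where 22.4% of all genes past the filter were lower by this much. Levels at least 4-fold lower were listed for 5, against 8.88% of all genes. None of the 7 was at least 2-fold higher, against 6.83% of all genes, and Nefh was the exception in direction, with a ratio just under that limit. The median log2 ratio of the 7 genes was -3.02, or -2.73 relative to the median gene.

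**Figure D1:**
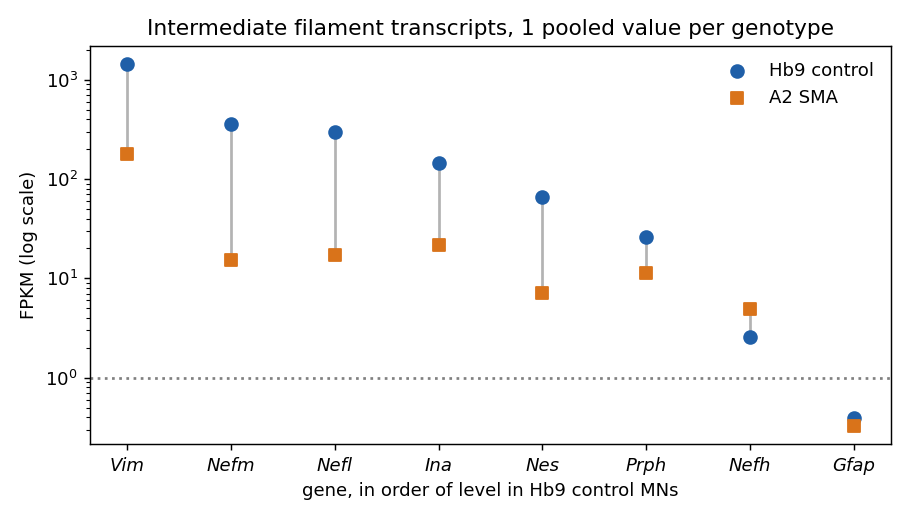
FPKM of the 8 filament genes on a log scale, with the Hb9 control value as a circle and the A2 SMA value as a square, each a single pooled value without an error. Nefm is drawn at 359 and 15.2 FPKM and Vim at 1436 and 178 FPKM, Nefh is the only gene whose square lies above its circle, and Gfap lies under the dotted line at 1 FPKM in both genotypes.

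Nefl, the light subunit on which neurofilaments are built, was listed at 297 FPKM in Hb9 MNs and 17.0 FPKM in A2 MNs. The level was 17.5-fold lower, a log2 ratio of -4.13, and 1.51% of all genes past the filter had a lower ratio. In the order of levels of the 33345 genes with a symbol, Nefl stood at place 192 in Hb9 control MNs and at place 6482 in A2 SMA MNs.

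Nefm, the medium subunit, whose tail projects from the filament, was at 359 FPKM in Hb9 control MNs, the highest level of any neuronal filament gene there. In A2 SMA MNs it was at 15.2 FPKM, which is 23.6-fold lower. Its log2 ratio of -4.56 was the lowest of the filament genes, with 0.925% of all genes lower still. Nefl and Nefm are neighbours on chromosome 14, and the table gives both the locus chr14:68700647-68742903 of NCBI m37, so this pair is a single region of the genome.

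Nefh, the heavy subunit, whose tail carries many phosphorylation sites, went the other way at a low level. It was listed at 2.54 FPKM in Hb9 MNs and 4.93 FPKM in A2 MNs, 1.94-fold higher, with a log2 ratio of 0.96. With the median gene as the zero point its log2 ratio was 1.25, a 2.37-fold difference, which is past the 2-fold limit that the ratio of the listed levels misses. Only 7.20% of all genes had a higher ratio. The gene lies at chr11:4838757-4848067.

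Ina, or alpha-internexin, which copolymerises with the neurofilament subunits and appears early in developing neurons, was at 146 FPKM in Hb9 MNs and 21.5 FPKM in A2 MNs. The level was 6.78-fold lower, a log2 ratio of -2.76. It was the most abundant neuronal filament transcript in A2 SMA MNs, where it stood above Nefl and Nefm, whereas in Hb9 control MNs it stood below both. The authors' comparison has the status FAIL for Ina, which means that Cuffdiff listed levels but made no comparison. The entry's locus, chr19:46961321-47099817, also holds Nt5c2.

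Prph, or peripherin, a filament protein of motor, sensory and autonomic neurons that project out of the central nervous system, was at 26.0 FPKM in Hb9 MNs and 11.3 FPKM in A2 MNs. It was 2.30-fold lower, with a log2 ratio of -1.20, the smallest difference among the genes that were lower. With the median gene as the zero point this came to -0.91, which is within 2-fold, and 17.9% of all genes had a lower ratio. The gene lies at chr15:98885587-98889409.

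Vim, or vimentin, the filament protein of neural progenitors and of most mesenchymal cells, was the most abundant of the filament transcripts in both genotypes. It was at 1436 FPKM in Hb9 control MNs, place 15 of all genes with a symbol, and at 178 FPKM in A2 SMA MNs, place 464. The level was 8.08-fold lower, a log2 ratio of -3.02, at chr2:13495554-13504453.

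Nes, or nestin, the large filament protein that marks neural stem and progenitor cells, was at 66.3 FPKM in Hb9 MNs and 7.07 FPKM in A2 MNs, 9.37-fold lower with a log2 ratio of -3.23. It has a further entry with the same locus, chr3:87774971-87784373, which was at 25.6 and 2.57 FPKM with a log2 ratio of -3.32. Both entries of Nes have the status FAIL. Among all genes past the filter 14.0% have this status. Without such genes, an alternative chosen after seeing the data, 4 of the 5 remaining filament genes were at least 2-fold lower and the median log2 ratio stayed at -3.02.

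Gfap, the filament protein of astrocytes, was listed at 0.390 FPKM in Hb9 MNs and 0.325 FPKM in A2 MNs. Both values are under the filter of 1 FPKM, so no ratio is given. The locus of its entry, chr11:102699787-102962972, holds many other genes.

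**Figure D2:**
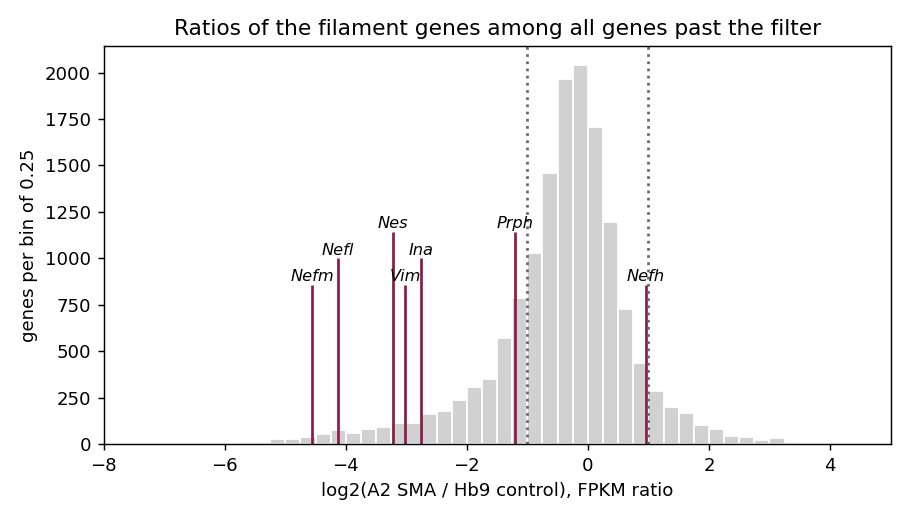
Log2 ratios of the 14926 genes past the filter, in bins of 0.25, with vertical lines at the ratios of the 7 filament genes that passed it and dotted lines at 2-fold lower and higher. Nefm, Nefl, Nes, Vim and Ina lie in the sparse left tail between -4.56 and -2.76, Prph at -1.20 just outside the lower dotted line, and Nefh at 0.96 just inside the upper one.

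Because the genes differed by unequal amounts, the make-up of the filament transcripts was not the same in the genotypes. The FPKM of the 8 genes summed to 2333 in Hb9 control MNs and to 255 in A2 SMA MNs, a 9.15-fold difference. The sum of the 5 neuronal genes was 11.9-fold lower, 831 against 70.0 FPKM, and that of Vim, Nes and Gfap was 8.12-fold lower, 1503 against 185 FPKM. The neuronal genes thus made up 35.6% of the sum in Hb9 control MNs and 27.5% in A2 SMA MNs. Vim alone made up 61.5% and 69.6%, and Nes made up 2.84% and 2.77%.

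Within the neuronal genes, Nefl and Nefm together dominated in Hb9 control MNs, with 35.8% and 43.2% of the summed FPKM. In A2 SMA MNs they held 24.3% and 21.7%. Ina went from 17.6% to 30.7% and Prph from 3.14% to 16.2%, although the levels of both were lower. The share of Nefh was 0.306% in Hb9 control MNs and 7.04% in A2 SMA MNs. These shares are of transcript levels, and none has an error.

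**Figure D3:**
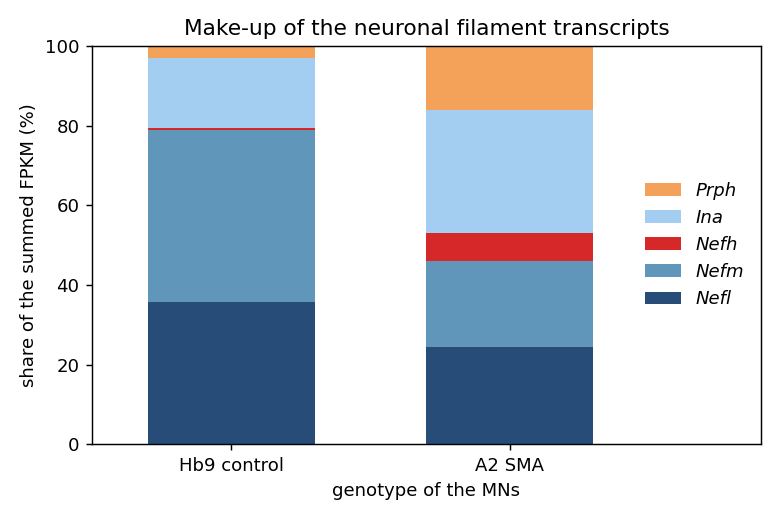
Share of each neuronal filament gene in the summed FPKM of the 5 genes, as stacked bars from 0 to 100%, with 1 bar per genotype and no error. Nefl and Nefm fill most of the Hb9 control bar, with 35.8% and 43.2%, and Ina, at 30.7%, has the largest share of the A2 SMA bar.

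The same levels can be written as proportions to Nefl, the subunit that the others join, in which any gene that was lower by less than Nefl has a larger value in A2 SMA MNs. For each unit of Nefl there were 1.21 units of Nefm in Hb9 control MNs and 0.894 in A2 SMA MNs. Ina went from 0.490 to 1.27 units and Prph from 0.0876 to 0.667 units. Nefh had 0.00854 units in Hb9 control MNs and 0.290 in A2 SMA MNs. Among the progenitor filaments, Vim went from 4.83 to 10.4 units and Nes from 0.223 to 0.416 units.

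In order of level, the genes of Hb9 control MNs were Vim, Nefm, Nefl, Ina, Nes, Prph, Nefh and Gfap. In A2 SMA MNs the order was Vim, Ina, Nefl, Nefm, Prph, Nes, Nefh and Gfap. Without a spread between samples it cannot be said which neighbours in these orders differ. Nefl and Nefm changed places, at 297 and 359 FPKM in the controls and at 17.0 and 15.2 FPKM in A2 SMA MNs, values that lie near each other in both genotypes.

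Promoters are shown for Vim, Prph, Ina and Nes because these transcripts were all lower while each gene lies on a different chromosome. RefSeq promoter sequences of build GRCm38.p6 were matched for 5 of the 8 genes, Ina, Prph, Vim, Nes and Gfap. The 100 bases before the start are printed 5′ to 3′ for the 4 that were lower, all on the plus strand. Capitals mark a TATA box, a CCAAT box and GC boxes, whose letters are spelled out after the sequences.
Vim, chr2:13574211-13574310: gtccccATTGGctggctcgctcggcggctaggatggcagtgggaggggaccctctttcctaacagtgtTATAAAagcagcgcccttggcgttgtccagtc
Prph, chr15:99055074-99055173: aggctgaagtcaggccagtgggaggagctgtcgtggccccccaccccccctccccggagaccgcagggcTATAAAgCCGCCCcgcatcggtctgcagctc
Ina, chr19:47014581-47014680: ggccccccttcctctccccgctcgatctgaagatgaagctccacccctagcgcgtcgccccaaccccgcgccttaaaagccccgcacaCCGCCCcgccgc
Nes, chr3:87970993-87971092: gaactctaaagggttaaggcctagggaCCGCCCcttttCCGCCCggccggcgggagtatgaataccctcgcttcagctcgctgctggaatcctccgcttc

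The 4 windows did not share a motif among those searched. Vim and Prph each hold a TATA box whose first base lies 32 and 31 bases before the start, a motif found in 5.56% of 32844 promoter windows of this length when TATAAA and its reverse complement TTTATA are both counted. The CCAAT box of Vim begins 94 bases before the start, and CCAAT or ATTGG was found in 18.9% of windows. GC boxes (GGGCGG or CCGCCC) begin 24 bases before the start in Prph, 12 in Ina, and 73 and 62 in Nes, and were found in 24.7% of windows. An E-box (CANNTG), which can overlap a CCAAT box, was not in any of the 5 windows and was found in 34.5% of all windows. The window of Gfap held none of these motifs. The GC content was 71% for Ina, 70% for Prph, 61% for Nes and 60% for Vim, against a median of 55% over all windows. A match of letters is a description and not a binding site, and the levels of Vim and Prph, which share the TATA box, were 8.08-fold and 2.30-fold lower.

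The genes next to the filament genes on the chromosome were read in the same way. The nearest gene with a symbol on each side that reached 1 FPKM in a genotype, and any gene that shares a locus entry, gave 22 neighbours. Of these, 6 were at least 2-fold lower, 2 were at least 2-fold higher and 14 were within 2-fold, with a median log2 ratio of -0.09. These counts lie near the shares over all genes, which are 22.4% lower, 6.83% higher and 70.8% within 2-fold. The 22 include the genes in and beside the locus of Gfap, which did not pass the filter, with C1ql1 and Acbd4 among the lower ones. St8sia6, Tuba1c, AA413626 and the entry of Ccdc103 and Fam187a reached 1 FPKM only in the genotype where they were higher. Beside the Nefl and Nefm locus, Dock5, a regulator of Rac, had a log2 ratio of 1.25 (3.19 and 7.61 FPKM) and Stc1, which encodes a secreted glycoprotein, had -1.74 (5.56 and 1.67 FPKM). They lie 149017 and 904391 bp away. Nearer to the locus, at 120 bp, are 5 entries without a symbol, which are not among the 22 and were all lower, with log2 ratios between -3.92 and -2.04. They share 1 locus, so they are not separate observations, and each reached 1 FPKM only in Hb9 control MNs.

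Ina stands in a row of genes that were within 2-fold. Cnnm2, whose entry ends 118 bp from that of Ina, was at 9.82 and 16.8 FPKM, Nt5c2 in the same locus was at 37.1 and 35.5 FPKM, and Pcgf6 on the other side was at 28.1 and 41.3 FPKM. Vim lies between Trdmt1, at 7.55 and 10.6 FPKM with a log2 ratio of 0.49, and St8sia6, at 0.342 and 1.16 FPKM with 1.76. Both were higher, but St8sia6 reached 1 FPKM only in A2 SMA MNs, the genotype where it was higher. Beside Prph, Tuba1c, at 0.680 and 1.22 FPKM and thus also past 1 FPKM only in A2 SMA MNs, had a log2 ratio of 0.85. Troap, with the status FAIL, had -0.12.

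Nes had a neighbour that was lower by a like amount. Crabp2, which encodes a retinoic acid binding protein and lies 17672 bp away, was at 231 and 21.0 FPKM, a log2 ratio of -3.46, next to -3.23 for Nes. Gpatch4 on the other side had a log2 ratio of 0.90. Beside Nefh, AA413626 was lower with a log2 ratio of -2.01 at 1.14 and 0.283 FPKM, and Ap1b1, which encodes a clathrin adaptor subunit, was at 92.1 and 82.9 FPKM. Near Gfap, Gjc1 had a log2 ratio of -0.71 and Acbd4 had -1.09. Of the genes within the locus of Gfap, named after their values were seen, C1ql1 was at 104 and 9.37 FPKM, a log2 ratio of -3.47 and the lowest of the 22 neighbours, and the entry of Ccdc103 and Fam187a had -1.08.

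**Figure D4:**
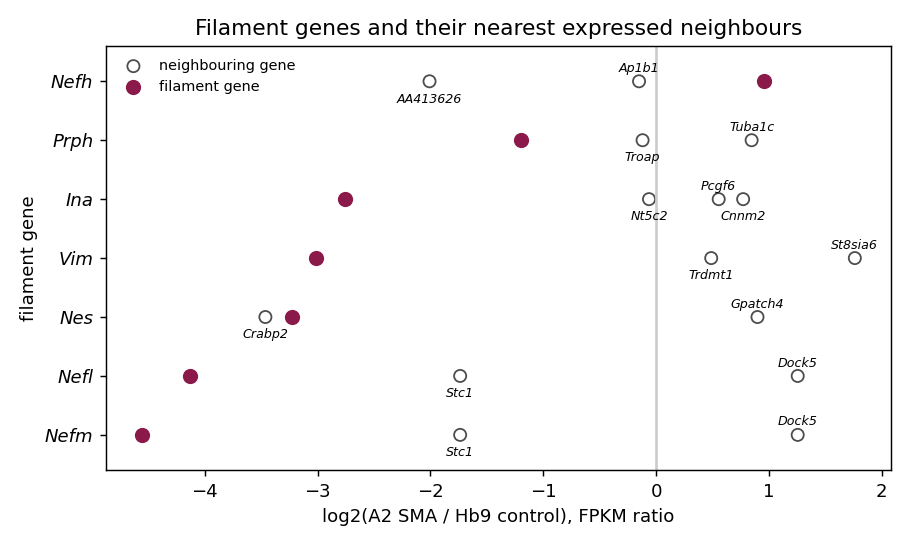
Log2 ratios of 7 filament genes (filled circles) and of the nearest symbol-bearing genes with at least 1 FPKM on either side or in the same locus (open circles, named), without errors. Next to Nefl and Nefm the neighbours lie at -1.74 and 1.25, both neighbours of Vim lie above 0, and Crabp2 at -3.46 lies beside Nes at -3.23. St8sia6 beside Vim reached 1 FPKM only in A2 SMA MNs.

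Other genes of the intermediate filament family were read from a list of 20 keratin, lamin and other filament genes, which does not cover the family. Of these, 14 passed the filter, of which 1 was at least 2-fold lower, 5 were at least 2-fold higher and 8 were within 2-fold, where the shares over all genes are 22.4%, 6.83% and 70.8%. Their median log2 ratio was 0.34, against -0.29 for all genes, and their FPKM summed to 390 and 508. Lmnb1, a lamin of the nuclear envelope, was at 232 and 275 FPKM. Among the keratins of simple epithelia, Krt19 was at 42.4 and 67.0 FPKM and Krt18 at 26.3 and 53.3 FPKM, log2 ratios of 0.66 and 1.02. Krt42 had the largest difference of the list, 0.137 against 3.28 FPKM with a log2 ratio of 4.59. Named after their values were seen, the others at least 2-fold higher were Krt7, Krt8 and Krt17, and the gene that was lower was Synm, which encodes synemin, a filament protein that joins vimentin and desmin, at 4.22 and 1.38 FPKM. Krt42, and Krt17 at 0.277 and 1.10 FPKM, passed the filter only through A2 SMA MNs, where they were higher. Both count among the 5, and their ratios rest on Hb9 levels under 1 FPKM.

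Linker proteins of the plakin family, which tie intermediate filaments to other parts of the cytoskeleton, were within 2-fold for 6 of 6 genes past the filter, against 70.8% of all genes, with a median log2 ratio of -0.29. Macf1 was at 80.4 and 55.7 FPKM, Dst at 32.7 and 28.9 FPKM and Plec at 24.7 and 21.3 FPKM, and Ppl had the largest ratio, 0.68 on the log2 scale. The entry of Plec also holds Parp10, and Dst has the status FAIL.

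Of 14 genes whose products phosphorylate filament proteins or govern their turnover, 4 were at least 2-fold lower, 1 was at least 2-fold higher and 9 were within 2-fold, with a median log2 ratio of -0.38. These counts lie near the shares over all genes, 22.4% lower and 6.83% higher. Cdk5r1, the activator p35 of the neuronal kinase CDK5, was at 23.2 and 2.16 FPKM, a log2 ratio of -3.43 with the status FAIL. Gsk3b, a kinase of neurofilament tails, was at 72.1 and 35.1 FPKM, a log2 ratio of -1.04. Stub1, a ubiquitin ligase, was at 118 and 102 FPKM, with the status FAIL and an entry that also holds Mir3082. Named after their values were seen, Cdk5r2 and Trim2 were the others that were lower, with log2 ratios of -2.39 and -1.79, the latter with the status FAIL, and Hspb1, a small heat shock protein, was higher with 1.82.

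Motor proteins that carry neurofilaments along axons were lower in 3 of 6 cases and within 2-fold in the other 3, against 22.4% lower and 70.8% within 2-fold over all genes, with a median log2 ratio of -1.25. Kif5c, a kinesin heavy chain enriched in neurons, was at 171 and 19.3 FPKM, a log2 ratio of -3.15. Klc1, a kinesin light chain, was at 207 and 63.1 FPKM, with -1.71, and Dync1h1, the dynein heavy chain, was at 239 and 139 FPKM, with -0.78. Named after their values were seen, Kif5a, the other neuronal heavy chain, had a log2 ratio of -2.57, and Kif5b, which most cell types express, had 0.11 with the status FAIL.

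RNA-binding proteins described to bind neurofilament mRNA were within 2-fold in 3 of 4 cases, which is near the share of 70.8% over all genes. Tardbp (TDP-43) was at 101 and 100 FPKM, a log2 ratio of -0.01. Elavl4 (HuD), a neuronal RNA-binding protein, was at 199 and 11.3 FPKM, a log2 ratio of -4.14, which is near that of Nefl at -4.13.

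Markers of the cell types that the sort could hold differed between the genotypes in both directions. Of the MN markers past the filter, 5 of 6 were at least 2-fold lower in A2 SMA MNs, against 22.4% of all genes, with a median log2 ratio of -4.62 and summed levels of 216 and 52.5 FPKM. Isl1 was at 108 and 5.95 FPKM, and Lhx3, which acts with Isl1 in MN specification, was at 27.6 and 0.348 FPKM, a log2 ratio of -6.31. Chat, the enzyme that makes acetylcholine, named after its values were seen, was at 15.5 and 0.344 FPKM. Lhx3 and Chat were thus under 1 FPKM in the cells labelled A2 SMA MNs, while Mnx1 was not lower. They and Lhx4, at 16.7 and 0.501 FPKM with the status FAIL, passed the filter only through Hb9 control MNs, where they were higher. The count and the median rest partly on them. Isl1, Isl2 and Mnx1, at 1 FPKM or more in both genotypes, had log2 ratios of -4.18, -2.57 and 0.10. Lhx4 and Isl2 were named after their values were seen. Slc5a7, the choline transporter of MNs, also named after its values were seen, was under 1 FPKM in both genotypes, at 0.387 and 0.0900 FPKM.

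Pan-neuronal markers were at least 2-fold lower in 8 of 9 cases, against 22.4% of all genes, with summed levels of 1060 and 232 FPKM and a median log2 ratio of -3.65. Gap43, a protein of growing axons, was at 241 and 11.9 FPKM, Map2, a protein of dendritic microtubules, at 218 and 14.5 FPKM, Dcx, a microtubule protein of young neurons, at 54.4 and 2.61 FPKM, and Stmn2, which regulates axonal microtubules, at 242 and 78.0 FPKM with the status FAIL. Their median lies between the ratios of Ina and Nefl. Syt1 (5.85 and 0.514 FPKM) and Rbfox3 (11.5 and 0.784 FPKM), named after their values were seen, passed the filter only through Hb9 control MNs, where they were higher.

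Neural progenitor markers, genes of the cells in which Vim and Nes are usually expressed, were at least 2-fold lower in 5 of 7 cases, against 22.4% of all genes, with summed levels of 1149 and 257 FPKM and a median log2 ratio of -4.40. Fabp7, a lipid-binding protein of radial glia, was at 553 and 5.52 FPKM, Nkx6-1 at 158 and 7.46 FPKM, and Hes5, a Notch target, at 65.3 and 0.349 FPKM. Sox2, which is shared by neural progenitors and pluripotent cells, was at 178.5 and 197 FPKM, within 2-fold. The other progenitor marker within 2-fold, named after its values were seen, was Pax6, at 22.4 and 21.4 FPKM. Hes5, and Olig2 at 32.1 and 0.704 FPKM, passed the filter only through Hb9 control MNs, where they were higher. The median of the list rests partly on them. The ratios of Vim and Nes lie between those of Notch1, at -2.52, and Nkx6-1, at -4.40. Olig2 and Notch1 were named after their values were seen.

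Astrocyte markers were at least 2-fold lower in 5 of 6 cases, against 22.4% of all genes, with summed levels of 192 and 71.0 FPKM and a median log2 ratio of -2.21. Several of them are also expressed by progenitors, such as Sox9, at 75.4 and 4.87 FPKM, and Slc1a3, at 32.2 and 6.86 FPKM, and Glul was at 50.4 and 52.5 FPKM. Aqp4 was at 0.421 and 0.0366 FPKM and S100b at 0.0219 and 0.0288 FPKM, like Gfap under the filter in both genotypes. Aldh1l1, at 13.9 and 3.03 FPKM, and Slc1a2, at 11.2 and 1.89 FPKM, were above it in both. Aqp4, S100b, Aldh1l1 and Slc1a2 were named after their values were seen.

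Markers of pluripotent cells went the other way in 8 of 8 cases, each at least 2-fold higher in A2 SMA MNs, against 6.83% of all genes. Their summed level was 275 FPKM in Hb9 MNs and 1808 FPKM in A2 MNs, 6.56-fold higher, with a median log2 ratio of 2.69. Pou5f1 was at 98.3 and 775 FPKM, Utf1 at 59.8 and 357 FPKM, Nanog at 41.4 and 236 FPKM and Tdgf1 at 10.2 and 105 FPKM. Utf1, Tdgf1 and Esrrb, the last named after its values were seen, have the status FAIL. Fibroblast markers, listed because fibroblasts also express Vim, were at least 2-fold lower in 4 of 9 cases and at least 2-fold higher in 1, against 22.4% and 6.83% of all genes, with summed levels of 80.9 and 45.4 FPKM and a median log2 ratio of -0.69. Col1a2 was at 20.1 and 8.93 FPKM, Col1a1 at 18.9 and 9.41 FPKM and Col3a1 at 15.9 and 6.57 FPKM, and Col1a1 has the status FAIL. The log2 ratios of these collagen genes lay between -1.27 and -1.01, just past 2-fold. With the median gene as the zero point they were within 2-fold, and the median of the list was -0.40. Lum (2.14 and 0.759 FPKM) and Thy1 (0.970 and 2.20 FPKM) passed the filter through 1 genotype only. Thy1 was named after its values were seen. The part of these cell type markers in the filament levels was not tested.

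**Figure D5:**
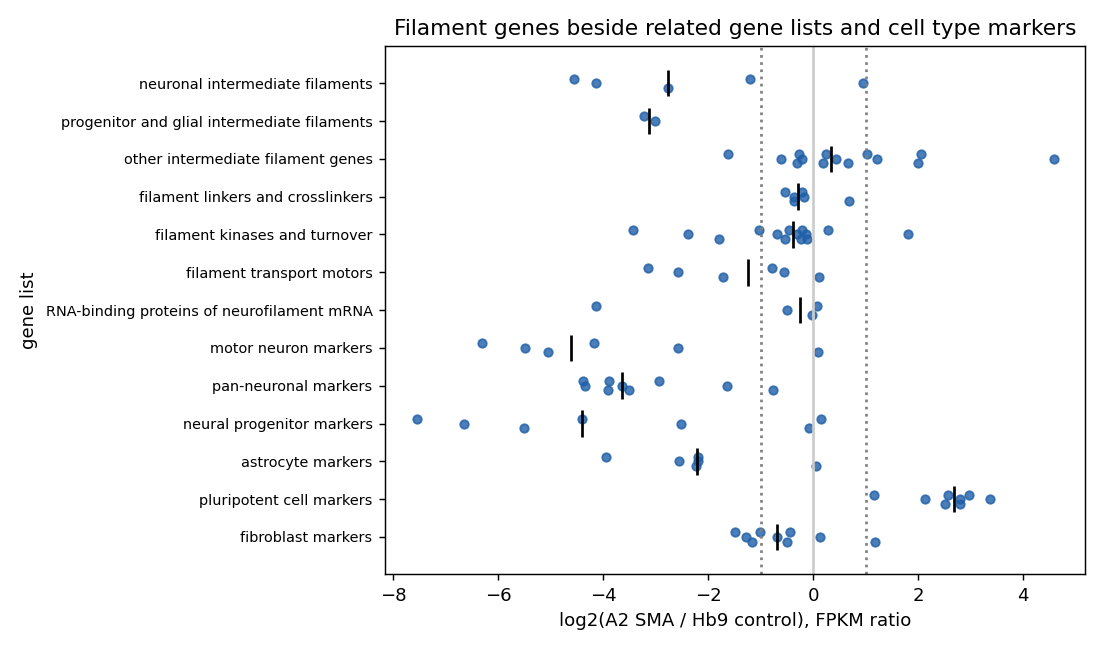
Log2 ratios of the genes past the filter in each list, with points for genes, a vertical bar for the median of the list and dotted lines at 2-fold lower and higher. The medians of the neuronal, MN and progenitor lists lie between -4.62 and -2.76, that of the other intermediate filament genes lies at 0.34, and all pluripotent cell markers lie to the right of the upper dotted line.

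The genes whose pair of levels was most like that of a filament gene were found by the Euclidean distance in log2 FPKM over the 2 genotype values, a likeness that rests on only 2 points. For Nefl they were Igdcc3, at 311 and 18.9 FPKM with a distance of 0.167, and Slit1, an axon guidance ligand, at 258 and 16.3 FPKM with 0.212. For Nefm the nearest gene was Nefl, at a distance of 0.315. Ina lay nearest to Dlg4, which encodes the postsynaptic scaffold PSD-95, at 138 and 22.3 FPKM, and Nes to Phf21b and Hey1, a Notch target, at 71.9 and 7.51 FPKM. Vim had no near match, since the closest genes, Tmsb4x and Nnat, were at distances of 0.893 and 1.02. Igdcc3, Slit1, Tmsb4x and Nnat have the status FAIL. Prph lay nearest to Cox7a2l and Dyrk1b, and Nefh to Nfatc2 and SNORA1, all at distances between 0.0371 and 0.0677.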

How the data were processed

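Reads from 3 samples per genotype (single-end, TruSeq kit) were checked by the authors with FastQC 0.10.1, trimmed with CutAdapt, mapped with TopHat 2.04 to NCBI m37 with Ensembl annotation, and assembled and compared with Cufflinks and Cuffdiff. The deposited values are FPKM, which the authors computed as 1 value per genotype. The same table holds the authors' fold changes, test statistics, p-values and q-values, which were not used here. The status column served as an annotation and to leave out entries in 1 alternative.

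The members and lists were chosen with earlier results of these data known. Of 110 listed genes, 104 were found by their symbol and 2 by an older symbol (Arhgef28 as Rgnef and Map2 as Mtap2). Eppk1, Slc18a3, Tubb3 and Sox1 were not matched by either, so the counts of their lists lack them. An entry that holds several symbols was counted once in counts over all genes. The genes named are the 8 filament genes, the 3 most abundant and the 1 with the largest absolute log2 ratio of each list, the nearest expressed neighbours, and the 2 genes nearest in level to each filament gene. Others are said to have been named after their values were seen. Some genes that this rule selects are not reported here. A locus can span several genes. Its start was read as counted from 0, because 175 of 571 small RNA genes then have their RefSeq length, against 0 when counted from 1, and positions are printed counted from 1. Promoter windows are those of RefSeq on GRCm38.p6, and positions of the builds were not mixed.

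Ratios and calls were computed with Python 3.11.15, numpy 2.4.6 and pandas 2.3.3, and figures were drawn with matplotlib 3.10.9. The fold calls were run on simulated levels with known differences. That run held no replicates, low control levels or general offset, so it checks only the code. With 1 value per genotype there is no SD, no test and no p-value, and no counting error was computed, because the table does not give the number of reads behind a pooled value. Alternatives were pseudocounts, scalings, filters, folds, summing the entries of a symbol and, chosen after seeing the data, leaving out entries with the status FAIL.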

Additional observations from a re-analysis of the deposited data

How the results depend on the processing

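The number of filament genes at least 2-fold lower was 6, and it was 5 when ratios were centred on the median gene or scaled to the upper quartile, where Prph came within 2-fold, and 5 at a fold of 4. None was at least 2-fold higher, and 1 was, Nefh, under centring (1), upper quartile scaling (1) or a fold of 1.5 (1). The median log2 ratio of the filament genes lay between -3.12 and -2.73 over the alternatives. Of 35 single ratios recomputed with pseudocounts, scalings or summed entries, 0 moved by over 1.5 times and 0 changed sign. Each scaling moves every log2 ratio by the same offset, and summing alters only Nes, which has 2 entries. For these alternatives the outcome was largely fixed in advance. The neuronal shares with summed entries were 35.2% and 27.2%. Over all genes, 1020 were at least 2-fold higher, against 656 with a pseudocount of 1 FPKM, 1558 when centred, 1551 with upper quartile scaling, 1733 with no filter, 556 with a filter of 5 FPKM, 268 at 4-fold and 1900 at 1.5-fold. At least 2-fold lower were 3343, against 5051 with no filter, 1326 at 4-fold and 5285 at 1.5-fold. Of the genes called in either direction 23.4% were higher, and 38.8% when centred; upper quartile scaling removed an offset of -0.29 from the log2 ratios. No paired analysis was possible because the table gives 1 pooled value per genotype, and for the same reason no sample could be left out. The table does not give the reads behind a value, so no counting error was computed for low levels such as those of Nefh and Gfap.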

Other observations

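Directly beside the entry of Nefl and Nefm the table lists 5 entries without a gene symbol, looked at after their values were seen. All 5 have the locus chr14:68743024-68749374 of NCBI m37, a stretch of 6351 bp that begins 120 bp beyond the end of the Nefl and Nefm locus. Their levels in Hb9 control MNs were between 1.57 and 4.32 FPKM and in A2 SMA MNs between 0.104 and 0.880 FPKM. All 5 were lower in A2 SMA MNs, with log2 ratios between -3.92 and -2.04, next to -4.13 for Nefl and -4.56 for Nefm. Over all genes past the filter, 65.9% were lower by any amount and 22.4% at least 2-fold. Because the 5 entries share 1 locus they are not separate observations, and each reached 1 FPKM only in Hb9 control MNs. Their strand and transcript structure were not analysed here.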
